A study of Mus musculus with 6 samples.

Results

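The 6 genes Socs1, Socs2, Socs3, Cish, Pim1 and Jak1 encode a kinase that starts cytokine signalling and proteins that are induced by it or restrain it. Chromatin accessibility at these genes was taken from ATAC-seq, a method that cuts and tags open DNA with a transposase. The cells were Treg cells, the regulatory T cells that restrain immune responses. A peak, a region called as open, belonged to a gene when its midpoint lay in the gene body, or when it lay between genes and the gene was the nearest protein-coding one within 100 kb. By this rule 69 of the 74440 peaks in the 2 deposited lists belonged to the 6 genes, 41 of them in the KO list and 28 in the WT list.

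The KO group consisted of 3 samples of mice labelled Bcl11b f/f Foxp3-IRES-YFP-Cre, and the WT group of 3 samples of mice labelled Bcl11b w/w Foxp3-IRES-YFP-Cre. Both groups were on the C57BL/6 background and both carried the Foxp3-IRES-YFP-Cre allele, which makes YFP and Cre recombinase in cells that express Foxp3. The age of the mice and the deleted part of Bcl11b were not given in the sources used here, and these files do not check the deletion. CD4+YFP+ cells were sorted from spleen and draining lymph nodes, and 100000 of them were lysed for each sample. The deposited data are a single list per group, shared by its 3 samples, with 36182 peaks for KO and 38258 for WT on mouse build mm10. Since no value belongs to a sample, the depth is unknown, replicate spread cannot be given and every difference below lacks a replicate check. A KO-only or WT-only peak had no overlap of at least 1 bp with any peak of the other list, so the call was missing there, and whether the site was closed is not shown. All 7 Treg and T cell marker genes examined (Foxp3, Il2ra, Ctla4, Ikzf2, Tnfrsf18, Cd4 and Cd3e) had at least 1 peak in each list. Foxp3 and Cd4 had only 1 in each, Tnfrsf18 and Cd3e 2, Il2ra 6 and Ctla4 13, while Ikzf2 had 17 KO and 14 WT peaks. The B cell genes Ms4a1 and Cd79a had 0 in both. Among innate markers, Eomes had 7 KO and 5 WT peaks, Klrb1c 5 KO and 6 WT peaks, and Ncr1 had 0 in both. Among myeloid markers, Itgam had 3 KO and 0 WT peaks, Lyz2 had 0 KO peaks and 1 WT peak, and Csf1r and Adgre1 had 0 in both. Cd8a had 0 in both lists, Cd8b1 had 1 KO and 2 WT peaks, and of the non-haematopoietic genes Alb had 0 KO peaks and 1 WT peak, Col1a1 had 1 in each list and Krt5 0 in both. The part of other cell types in the results was not tested.

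As background, cytokines such as IL-2 bind receptors that carry JAK kinases. The kinases phosphorylate STAT factors, which enter the nucleus and bind DNA at palindromic sites. STAT5 downstream of IL-2 sustains Foxp3 and the fitness of Treg cells. Among the genes that STAT factors induce are Cish and the SOCS genes, whose SH2-domain proteins bind activated receptors or kinases and dampen the signal, and Pim1, a serine/threonine kinase of survival and growth.

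At each of the 6 genes KO-only peaks outnumbered WT-only peaks, while 20 peaks of each list were shared. KO-only peaks numbered 21 and WT-only peaks 8. KO-only peaks thus made up 51.2% of their KO peaks (exact Clopper-Pearson 95% interval 35.1 to 67.1%), against 24.8% of all KO peaks assigned to a protein-coding gene. WT-only peaks made up 28.6% of their WT peaks (13.2 to 48.7%), against 28.4% of all assigned WT peaks. Of the genotype-specific peaks of the 6 genes, 72.4% were KO-only (52.8 to 87.3%), against 45.4% over all assigned peaks (44.7 to 46.1%). Without Pim1, 16 KO-only and 8 WT-only peaks remained, a share of 66.7% with an interval of 44.7 to 84.4%. All intervals are for counting error alone, and peaks close to each other are not independent.

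Read gene by gene, KO-only minus WT-only peaks came to 5 at Pim1, 2 at Socs1, Socs2 and Jak1, and 1 at Socs3 and Cish. More KO-only than WT-only peaks were found at 20.2% of the 14528 protein-coding genes with a peak, a difference of at least 2 at 5.21% and one of at least 5 at 0.172%. Genes were not matched for their number of peaks in these shares. The 6 genes held 29 genotype-specific peaks, against 18769 over the 14528 genes. A gene with few such peaks cannot reach a large difference, so the shares partly reflect peak number. The median difference was 2 over the 6 genes and 0 over all genes with a peak. The 6 genes were chosen with earlier results of these data known, so these numbers describe them and are no independent evidence of a direction. The differences at Socs2 and Socs3 turned to -1 when the reach was cut to 10 kb, where 9 KO-only and 6 WT-only peaks were left over the 6 genes. When noncoding genes also competed for peaks, 11 KO-only and 6 WT-only peaks were left, and Socs2 again stood at -1.

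**Figure D1:**
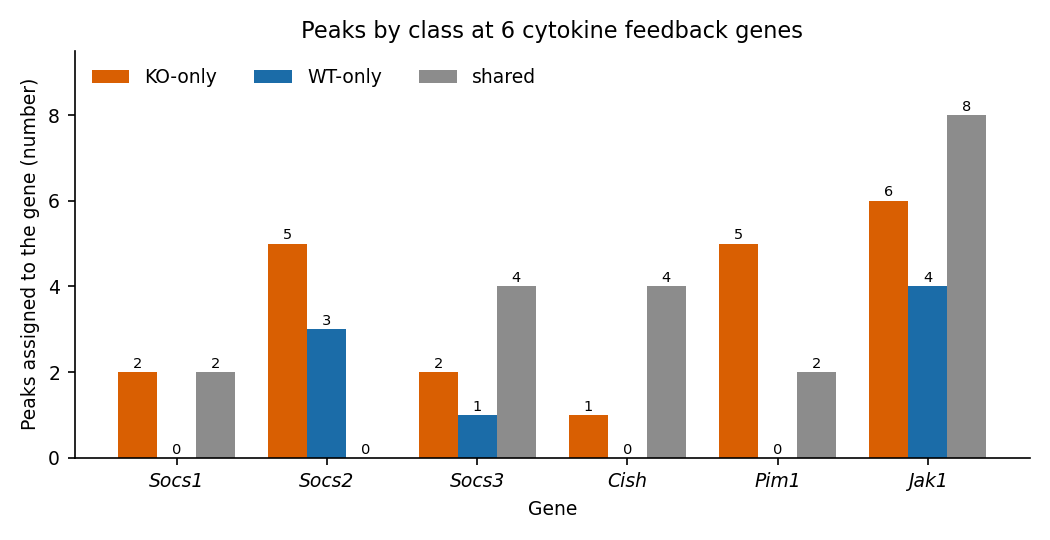
Number of peaks (vertical axis) assigned to each of the 6 genes, with KO-only peaks in orange, WT-only peaks in blue and shared peaks in grey (counted in the KO list). Orange bars exceed blue bars at every gene, by 5 peaks at Pim1 and by 1 at Socs3 and Cish.

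**Figure D2:**
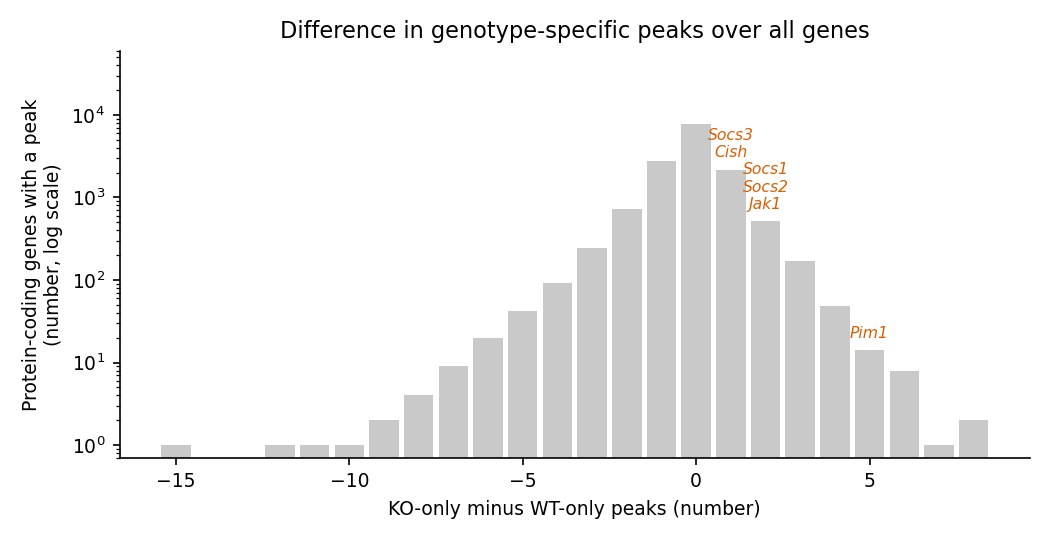
Number of protein-coding genes with a peak (vertical log axis) at each value of KO-only minus WT-only peaks (horizontal axis), with the 6 genes written above their own bars. Pim1 stands at 5, a difference that 0.172% of the 14528 genes reached or passed, and the other genes stand at 1 or 2. Genes were not matched for their number of peaks.

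Pim1, on chromosome 17 from 29490785 to 29496111, had the most one-sided set of peaks, of which 5 were KO-only, 2 were shared and 0 were WT-only. Both shared peaks lay away from the start site. One was inside the gene, with its midpoint 3.65 kb past the start site in both lists (KO list, chr17:29494336-29494528). The other lay 53.4 kb before it (KO list, chr17:29437257-29437449), and in both pairs the KO peak was covered over its full 193 bp by the WT peak.

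Of the KO-only peaks of Pim1, the one at chr17:29490377-29490569 stood next to the start site, its midpoint 312 bases before it, and did not cover it. The nearest WT peak was 3.76 kb away, so the KO list held a peak just upstream of Pim1 where the WT list held none. A peak of the KO list that no WT peak overlapped touched 3.35% of the 17491 promoter windows of protein-coding genes. Beyond the gene, KO-only peaks lay at chr17:29501042-29501234 and chr17:29506190-29506382, 5.03 and 10.2 kb past the gene end. On the far side they lay 31.1 and 50.7 kb before the gene. The nearest WT peak to each of these was between 2.50 and 22.1 kb away. Of the 5, the peak just upstream and both peaks on the far side had their midpoints inside the noncoding genes Gm26885 and Gm36199, and assignment to the nearest gene leaves unknown on which gene a site acts.

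**Figure D3:**
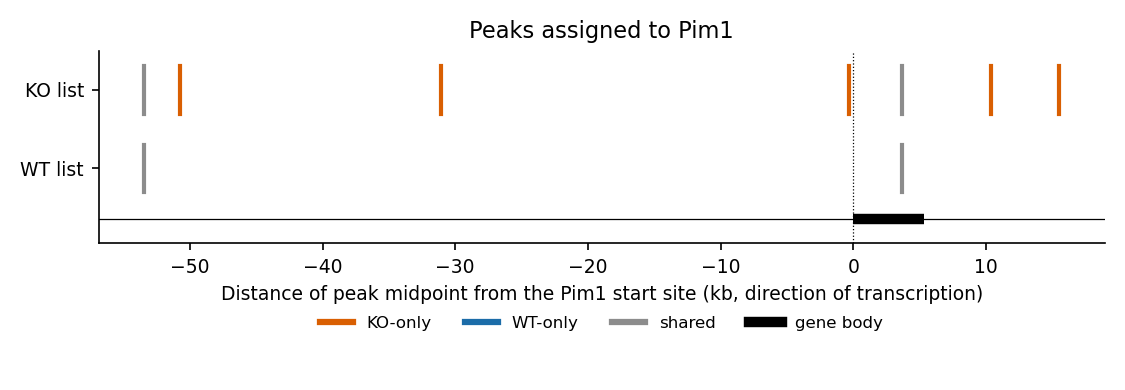
Peaks assigned to Pim1, drawn at the distance of their midpoints from the start site in kb (horizontal axis), with the KO list above the WT list and the gene body as a black bar. The WT list holds only the 2 shared peaks (grey), while the KO list also holds 5 KO-only peaks (orange), 1 of them with its midpoint 312 bases before the start site.

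The promoter sequences from RefSeq (build GRCm38.p6, with the same coordinates as mm10), from 250 bases before to 50 bases after the start site, are shown for Pim1 and Socs3. Of the 5 genes found in the promoter table, Socs1, Cish and Jak1 had a peak of both lists in this window, as did 39.3% of the windows of protein-coding genes. Pim1 and Socs3 had a KO peak and no WT peak in it, as did 2.82%. The Pim1 peak was KO-only. That of Socs3 was a shared peak, since it overlapped by 97 bp a WT peak that lay outside the window. Capitals mark the bases that the KO peak covered. The Pim1 window is chr17:29490535-29490834 on the plus strand and the Socs3 window chr11:117969317-117969616 on the minus strand.
Pim1: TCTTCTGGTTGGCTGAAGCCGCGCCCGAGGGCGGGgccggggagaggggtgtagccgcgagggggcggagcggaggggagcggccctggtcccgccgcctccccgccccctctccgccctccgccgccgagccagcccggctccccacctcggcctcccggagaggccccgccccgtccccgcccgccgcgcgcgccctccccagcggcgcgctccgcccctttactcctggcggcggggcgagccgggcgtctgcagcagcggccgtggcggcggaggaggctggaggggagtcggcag
Socs3: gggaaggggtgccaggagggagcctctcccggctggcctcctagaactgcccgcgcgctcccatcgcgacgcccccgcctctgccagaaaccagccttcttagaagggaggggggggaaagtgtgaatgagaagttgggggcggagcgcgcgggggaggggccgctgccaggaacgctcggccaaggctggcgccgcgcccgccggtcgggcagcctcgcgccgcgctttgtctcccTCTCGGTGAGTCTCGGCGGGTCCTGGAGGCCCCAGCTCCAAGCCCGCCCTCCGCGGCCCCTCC
The KO-only peak reached 35 bases into the Pim1 window, up to 216 bases before the start site, and lay mostly upstream of it. The letters GGGCGG, a GC box of the kind bound by Sp1-type factors, occurred 7 times in the Pim1 window on either strand, 1 of them under the KO-only peak. At least 1 such match was held by 46.3% of the promoter windows of protein-coding genes and at least 7 by 0.909%. At Socs3 the KO peak covered 63 bases, from 13 bases before the start site onwards. The palindrome TTCNNNGAA, the general form of a STAT5 site, was absent from the Pim1 window and occurred once in the Socs3 window, 154 bases before the start site, outside the peaks of both lists. Among the other motifs searched on both strands, the ETS-type letters CCGGAAG had no match in the windows of the 5 genes, against 11.9% of all windows that hold them. The same was true of the AP-1-type letters TGANTCA, held by 7.08% of all windows. No match was found to the Runx-type letters TGTGGT, held by 15.1%, or to the TATA box, with the letters TATAAA, held by 13.3%. These matches describe the letters and do not show that a factor binds there.

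Cish, on chromosome 9 from 107296659 to 107302784, encodes CIS, a feedback inhibitor of IL-2 receptor and STAT5 signalling. Of its peaks, 1 was KO-only, 4 were shared and 0 were WT-only. The peak over its start site was shared (KO list, chr9:107296611-107296803; WT list, chr9:107296569-107296787), with 177 bp in common. The promoter, chr9:107296409-107296708 on the plus strand, is shown because 2 TTCNNNGAA palindromes, in capitals, lay side by side under this peak in both lists.
Cish: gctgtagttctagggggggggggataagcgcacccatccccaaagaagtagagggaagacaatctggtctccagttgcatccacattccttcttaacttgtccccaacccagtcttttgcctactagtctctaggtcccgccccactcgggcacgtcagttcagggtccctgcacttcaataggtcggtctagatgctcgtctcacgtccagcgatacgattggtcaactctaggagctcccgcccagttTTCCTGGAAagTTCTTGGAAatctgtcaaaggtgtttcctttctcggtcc
The palindromes read TTCCTGGAA and TTCTTGGAA and began at the first and the twelfth base of the transcript. At least 1 match to TTCNNNGAA was held by 7.83% of all promoter windows of protein-coding genes and at least 2 by 0.412%. The KO-only peak of Cish, chr9:107303191-107303383, lay 503 bases past the other end of the gene, 2.83 kb from the nearest WT peak. Of the other shared peaks, 1 lay within 1 kb before the start site, with an overlap of only 43 bp between the lists, and those at chr9:107306248-107306440 and chr9:107312915-107313107 lay 3.56 and 10.2 kb past the gene end. By the 1 bp rule the lists therefore differed by a single site at Cish. When an overlap of 50% of the shorter peak was required, Cish had 2 KO-only peaks and 1 WT-only peak.

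Socs1, on chromosome 16 from 10783808 to 10785536, encodes an inhibitor of JAK kinases that keeps interferon and IL-2 signalling in check. Its peaks were 2 KO-only and 2 shared ones, with 0 in the WT list alone. The start site was under a peak in both lists (KO list, chr16:10785393-10785585), and a second shared peak lay 13.2 kb past it, beyond the gene (KO list, chr16:10772240-10772432). The KO-only peaks, at chr16:10768894-10769086 and chr16:10774783-10774975, stood on either side of that second shared peak, and the nearest WT peaks were 3.18 and 2.30 kb away. So the KO list had 3 peaks in this stretch downstream of Socs1, where the WT list had 1. Both KO-only peaks lay in the first 50% of the KO list of their chromosome.

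Socs3, on chromosome 11 from 117966079 to 117970336, encodes an inhibitor of gp130 cytokine receptors such as that of IL-6. There were 2 KO-only peaks and 1 WT-only peak beside 4 shared ones. Its start site, as taken from the promoter table, was covered by a KO peak (chr11:117969187-117969379) that shared 97 bp with a WT peak centred 192 bases downstream of the start site (chr11:117969065-117969283). The WT-only peak, chr11:117969827-117970045, had its midpoint at -570 bases relative to the start site and lay 447 bases from the nearest KO peak. Thus the promoter region of Socs3 was called open in both lists, with 1 KO peak and 2 WT peaks at different positions within it. The KO-only peaks lay downstream, at chr11:117954165-117954357 and chr11:117930945-117931137, with midpoints 11.8 and 35.0 kb outside the gene. Of the other shared peaks, those at 248 bases and 2.57 kb below the lower gene boundary in the KO list overlapped WT peaks by 193 and 172 bp, and the one 13.8 kb below it by only 10 bp. The more distant KO-only peak fell in the last 10% of the KO list of its chromosome and was nearer to the noncoding gene Gm11725 than to Socs3.

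Socs2, on chromosome 10 from 95383903 to 95417321, encodes a SOCS protein best known as a brake on growth hormone signalling. It was the only 1 of the 6 genes with no shared peak, a state found at 14.3% of genes with a peak. KO-only peaks numbered 5 and WT-only peaks 3, but 2 peaks of each class lay next to each other in pairs. The KO-only peak chr10:95395032-95395224 and the WT-only peak chr10:95395261-95395479 were 36 bp apart, and the KO-only peak chr10:95416826-95417018 and the WT-only peak chr10:95417076-95417294, at the upper gene boundary, were 57 bp apart. Counted with a gap of 500 bp, the KO list kept 3 peaks of its own at Socs2, the WT list kept 1, and 2 in each list became shared. The KO-only peaks with no WT peak nearby stood outside the gene, 11.7 kb below its lower boundary and 21.9 and 25.2 kb above its upper one, each at least 21.8 kb from a WT peak. Each of them was nearer to a noncoding gene, 2310039L15Rik or 5730420D15Rik, than to Socs2. The remaining WT-only peak, chr10:95415736-95415954, lay in the gene, 871 bp from a KO peak. No promoter of Socs2 is shown.

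Jak1, on chromosome 4 from 101151974 to 101265282, encodes the kinase that pairs with Jak3 at the receptors of IL-2 and related cytokines. It is the longest of the 6 genes at 113 kb and had the most peaks, 6 KO-only, 4 WT-only and 8 shared ones. Its start site was under a peak in both lists (KO list, chr4:101265155-101265347), with 141 bp in common. Of the shared peaks, 6 lay inside the gene and 2 upstream of it, 27.0 and 55.5 kb outside the gene in the KO list. As at Socs2, many of its genotype-specific peaks were neighbours. The KO-only peak chr4:101213688-101213880 lay 25 bp from the WT-only peak chr4:101213444-101213662 inside the gene. Upstream of the gene, the KO-only peak chr4:101292936-101293128 lay 19 bp from the WT-only peak chr4:101293148-101293366, and chr4:101298640-101298832 lay 176 bp from the WT-only peak chr4:101298245-101298463. Away from these, the KO list had peaks of its own at chr4:101199698-101199890 and chr4:101217021-101217213 in the gene and at chr4:101313623-101313815 upstream. The WT list had 1, at chr4:101202786-101203004. When noncoding genes also competed, every peak outside the gene, of each class, went to Gm12796.

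**Figure D4:**
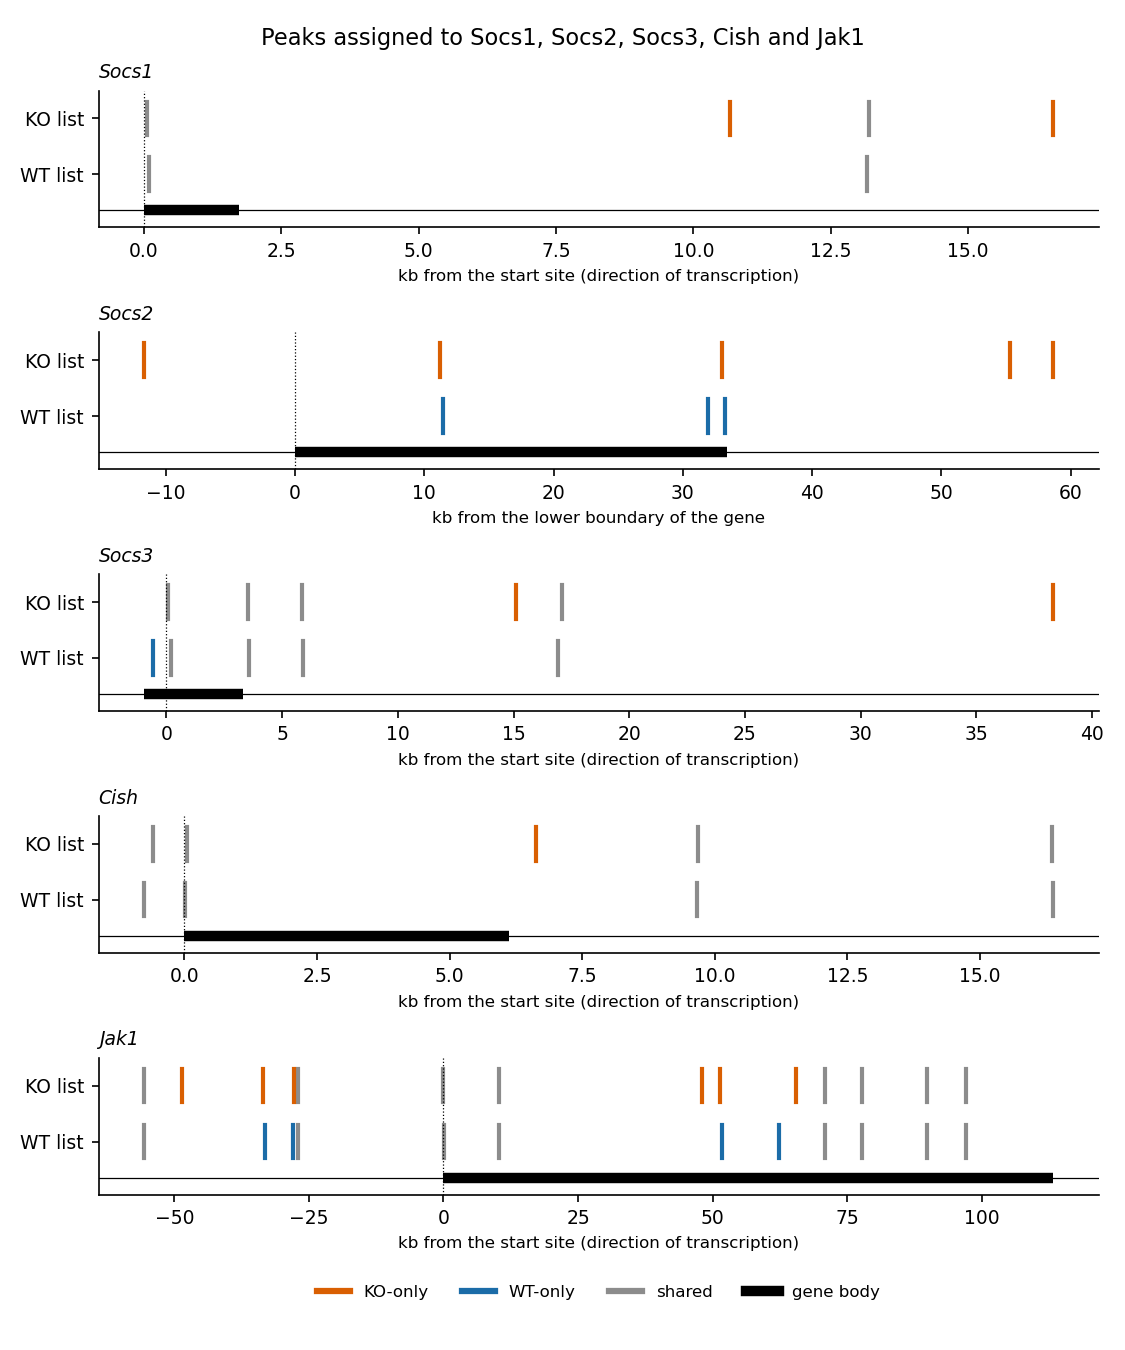
Peaks assigned to Socs1, Socs2, Socs3, Cish and Jak1, drawn by the distance of their midpoints in kb from the start site, or for Socs2 from the lower gene boundary (horizontal axes), with the KO list above the WT list and gene bodies as black bars. At Socs2 and Jak1 some orange KO-only and blue WT-only marks stand nearly above each other. Socs1 and Cish have no WT-only peak and so no blue mark.

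Neighbouring peaks of the other list were next counted over the 6 genes. A WT peak lay within a gap of 500 bp for 5 of the 21 KO-only peaks (23.8%, 8.22 to 47.2%), against 28.8% of all assigned KO-only peaks. A KO peak lay within that gap for 6 of the 8 WT-only peaks (75.0%, 34.9 to 96.8%), against 20.7% of all assigned WT-only peaks. The KO-only share was thus near that of all genes, and the WT-only share was above it. With such neighbours counted as shared, 16 KO-only and 2 WT-only peaks remained, those last 2 lying 1 each at Socs2 and Jak1. Midpoints of 5 of the 21 KO-only peaks lay in a gene body (23.8%, 8.22 to 47.2%), against 60% of all assigned KO-only peaks. All 5 were in Socs2 or Jak1, and the other genes are short, from 1.73 kb (Socs1) to 6.13 kb (Cish). Gene length was not accounted for. Shared peaks lay in a gene body in 10 of 20 cases in each list. For WT-only peaks the gene body held 6 of 8 (75.0%, 34.9 to 96.8%), against 60.8%. The difference between these shares was not tested.

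The order of peaks in the lists is taken here as a rank of strength, which is inferred from the peak numbers and not stated by the labels. By peak number within the chromosome, 11 of the 21 KO-only peaks (52.4%, 29.8 to 74.3%) stood in the first 50% of the KO list, against 26.9% of all assigned KO-only peaks. For WT-only peaks it was 5 of 8 (62.5%, 24.5 to 91.5%) in the WT list, against 18.5%. Shared peaks stood there in 17 of 20 cases in the KO list, against 59% of all assigned shared peaks, and in 18 of 20 in the WT list, against 64.1%. The KO-only peak just upstream of Pim1 was at 24.6% of the KO list of chromosome 17, the KO-only peak of Cish at 24.7% of that of chromosome 9, and the KO-only peaks of Socs1 at 16.9% and 32.8% of that of chromosome 16. The KO-only peak 31.1 kb before Pim1, at 98.7%, was among the last calls. With later peaks left out (the first 50% kept), KO-only minus WT-only came to 3 at Pim1, 2 at Socs1, 1 at Cish and 0 at Socs2, Socs3 and Jak1. Over all assigned peaks, the first 50% held 2294 KO-only and 1894 WT-only peaks, against 8515 and 10254 in the full lists. KO-only peaks were thus the more numerous there over all genes as well.

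**Figure D5:**
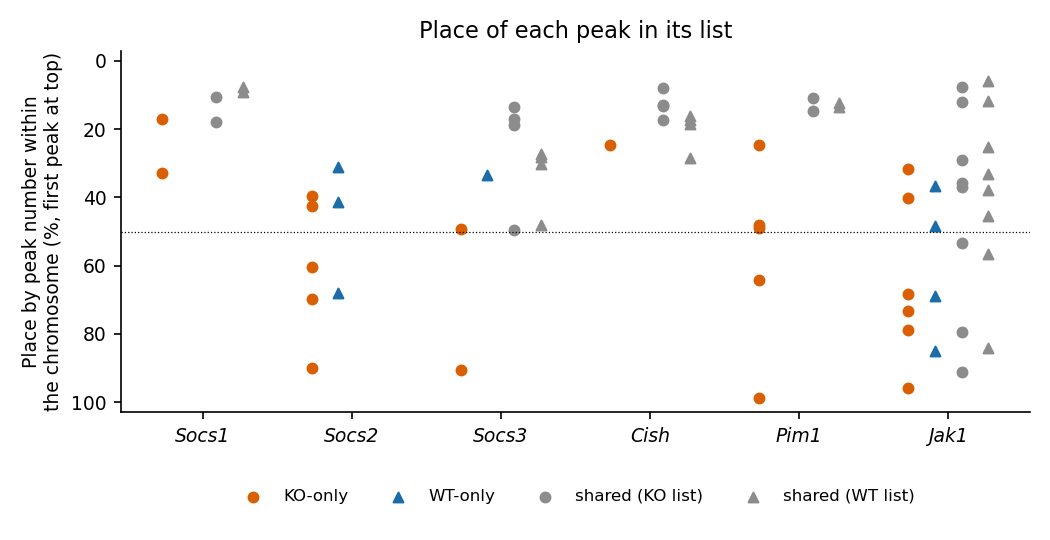
Place of each peak of the 6 genes within its list, by peak number within the chromosome (vertical axis in percent, with the first peak at the top and a dotted line at 50%), for KO-only, WT-only and shared peaks of the KO and WT lists. Most shared peaks stand above the line, and the KO-only peaks run from 16.9% to 98.7%.

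Other genes of JAK-STAT signalling did not show a surplus of KO-only peaks. A list of 50 receptors, kinases, STAT factors, inhibitors and targets without the 6 genes held 51 peaks found in KO alone and 71 found in WT alone, with 182 shared peaks in each list. Their KO-only share was 41.8% (32.9 to 51.1%), near the 45.4% of all assigned peaks. KO-only peaks were more numerous at 11 of the 50 genes (22%, against 20.2% of all genes with a peak) and WT-only peaks at 19 (38%, against 26.7%). Here too, genes were not matched for their number of peaks. The larger number on the WT-only side depended on the setting. With an overlap of 50%, 11 genes had more KO-only and 19 more WT-only peaks. The numbers were 10 and 19 with a gap of 500 bp, 12 and 17 within 10 kb and 11 and 16 within 50 kb. They were 10 and 18 by nearest gene end and 12 and 17 when noncoding genes competed. The surplus was lost with the longer WT list cut down to 36182 peaks (15 and 15). It was also lost in the first 50% of each list by peak number (11 and 10). Among the relatives of the inhibitors, Socs5 had no KO-only peak but 3 in the WT list alone and 3 shared, Socs6 had 1 in the KO list alone and 0 in the WT list alone, and Socs4 and Socs7 had shared peaks alone. Of the relatives of Pim1, Pim2 had shared peaks alone and Pim3 had 1 WT-only and 1 shared peak. Ccnd3, which encodes cyclin D3, had 4 peaks in the KO list alone and 1 in the WT list alone. At the survival gene Bcl2 the KO list alone had 2 and the WT list alone 8, a difference of -6 that turned to 1 when the later peaks were left out. The receptor chain genes Il2ra and Il2rb had equal numbers of KO-only and WT-only peaks, as had Jak3.

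The counts most like those of Pim1 were sought over all genes with a peak. The measure was the sum of the absolute differences in KO-only, WT-only and shared peaks, with shared peaks counted in the KO list. Sh3bp4 had the same counts as Pim1 (5, 0 and 2). A further 11 genes differed from Pim1 by 1 peak in all. Among them were Defb33, Gm5373 and Itga1, named because ties were taken in order of symbol. This likeness rests on counts in 2 lists.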

How the data were processed

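Peaks of Treg cells from ATAC-seq were compared between KO and WT (3 samples each). The submitters' processing notes name deepTools, HOMER 4.10.1, SAMtools 1.3, HISAT2 2.1.0, cutadapt 1.12, Trim Galore 0.4.2, FastQC and build mm10. Peak threshold, transposase shift and pooling are not given in the notes used here. Per the labels the samples of a group share 1 peak file, and the score that the authors deposited is 1 throughout and carries no height. Most peaks had a width of 193 bp in KO (36176) and 219 bp in WT (38249).

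Overlap, gene assignment and motif matches were computed with scipy 1.17.1, pandas 2.3.3, numpy 2.4.6 and Python 3.11.15, and plots with matplotlib 3.10.9. Genes and start sites came from RefSeq tables of GRCm38.p6, the promoter table holding 5 of the 6 genes, and distances use its first window per gene. Where gene bodies overlapped, the shortest gene holding the midpoint was taken. The code was tested on simulated data of 800 peaks and differed from bedtools 2.31.1 in 0 calls. No test across samples could be made, so shares have exact Clopper-Pearson 95% intervals. A STAT6-type site (TTC and GAA around any 4 bases; in 6.37% of windows) had no match at the 5 genes. The E box CACGTG (7.9%) matched only in a second window of Pim1, and GGGCGG also matched 2 times each at Socs1, Socs3 and Cish and 1 time at Jak1. Named from the JAK-STAT list were genes with a difference of at least 3 peaks, at most 5 per direction. For members with such a difference, the 5 genes nearest in counts were sought. A gene that this rule names and a marker gene are not reported here. Socs4, Socs6, Socs7, Pim2, Pim3, Il2ra, Il2rb and Jak3 were named after their values were seen. The 6 genes and all lists were chosen with earlier results of these data known.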

Additional observations from a re-analysis of the deposited data

How the results depend on the processing

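No paired analysis was possible because each group has a single peak list and no value belongs to a replicate. For the same reason no replicate could be left out. The 8 alternatives were chosen at the start, and a further one, row order in place of peak number, after seeing the data. Over the 6 genes KO-only peaks outnumbered WT-only peaks under every one of these 9 settings. In the first 50% by peak number this also held over all assigned peaks, with 2294 KO-only and 1894 WT-only peaks. For the other alternatives, the 6 genes were not set beside all peaks. KO-only peaks numbered 11 in the first 50% of each list by peak number and also by row order, 11 when noncoding genes competed for peaks, and 9 within 10 kb, against 21. WT-only peaks numbered 5 in the first 50% by either order and 2 with the gap of 500 bp, where the KO-only share was 88.9%. In the JAK-STAT list, genes with more KO-only and with more WT-only peaks numbered 11 and 19. In the first 50% they numbered 11 and 10 by peak number and 11 and 9 by row order. With the longer WT list cut down to 36182 peaks they numbered 15 and 15. Under the other settings, genes with more WT-only peaks stayed the more numerous. Single genes turned as follows: Socs2 to -1 within 10 kb and when noncoding genes competed, Socs3 to -1 within 10 kb, and Bcl2 to 1 in the first 50% by either order. Pim1 kept a surplus of KO-only peaks throughout, between 2 and 5. The settings within 10 kb, in the first 50% and with noncoding genes leave fewer peaks, and KO-only peaks fell the most. Within 10 kb, KO-only, WT-only and shared peaks numbered 9, 6 and 14, against 21, 8 and 20. With noncoding genes they numbered 11, 6 and 17. There, 10 of the 21 KO-only peaks went to a noncoding gene, against 2 of 8 WT-only and 3 of 20 shared peaks. The size of the KO-only surplus thus depended on how distant peaks were assigned. Calls without heights cannot show a change in accessibility at a shared peak.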
